A study of Mus musculus with 6 samples.

Results

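The 10 genes described here encode small heat shock proteins and cytosolic chaperones of muscle. They were chosen by name, as Hspb1, Cryab, Hspb6, Hspb7, Hspa1a, Hspa1b, Hspa8, Hsp90aa1, Dnajb1 and Bag3, and every probe set whose platform annotation gives exactly 1 gene symbol, from among these names, was taken. This gave 25 of 45101 probe sets, a probe set being a group of short probes for 1 transcript on the Affymetrix mouse genome array, and 10 of the 18194 genes that have such a probe set. The arrays compared muscle RNA from 3 OVX + E2 samples with that from 3 OVX samples. OVX + E2 mice were C57BL/6 females ovariectomized at 4 months of age that carried pellets made to deliver 0.18 mg of 17β-estradiol (E2) in 60 days, and OVX mice had the same surgery and carried placebo pellets for 60 days. Every animal of both groups therefore lacked ovaries. The sources do not tell if the arrays of a group come from different mice, so the p-values refer to the spread among these samples alone, and that spread may be technical.

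Small heat shock proteins hold unfolding proteins in a soluble state without using ATP, and in striated muscle they gather on the Z-disc and on the desmin, actin and titin filaments that carry load. HSP70 proteins take over such clients in an ATP-driven cycle that J-domain proteins such as Dnajb1 start and nucleotide exchange factors such as Bag3 end, and HSP90 completes the folding of kinases, steroid receptors and, with its co-chaperones, myosin. Heat shock factor 1 switches on the inducible genes after heat, exercise or injury through repeats of the bases GAA in alternating orientation.

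The tissue is left ventricle by the sample labels but skeletal muscle by the series title and soleus by the methods. By their brightest probe set, 14 of 15 skeletal-muscle-restricted genes ranked in the top 5% of the array, against 1 of 15 heart-restricted genes, Actc1, and the defining heart genes Myh6, Nppa and Tnni3 lay at percentiles 66.1, 37.4 and 29.8. The deposited values are log2 values in arbitrary units, with array medians of 6.90 to 6.93 and array maxima of 14.04 to 14.19. The arrays numbered 3 stood apart. The mean deviation of 12 fast-fibre genes from their mean over the 6 arrays was −1.28 on OVX + E2 replicate 3 and 0.81 on OVX replicate 3, while the other 4 arrays ran from −0.19 to 0.29, and results are therefore also given without the arrays numbered 3. In whole muscle, fewer cells of a type and less RNA per cell cannot be told apart.

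The stretches upstream of the start site are shown for the member genes that hold the motif GAANNTTC. This motif is a pair of GAA repeats in opposite orientation, a part of the heat shock element, the control sequence for which the family is known. Longer runs of these repeats were not sought, so a stretch without the motif is not shown to lack the element. The stretches are the 250 bases before the RefSeq start site in build GRCm38.p6, 5′ to 3′ on the strand of the gene, and capitals mark the motif GAANNTTC. The Hspa1a stretch is chr17:34972157-34972406 and the Hspa1b stretch chr17:34959239-34959488, both on the minus strand. The Hspb1 stretch is chr5:135887669-135887918 and that of the second start site of Hspb6 chr7:30553051-30553300, both on the plus strand.
Hspa1a: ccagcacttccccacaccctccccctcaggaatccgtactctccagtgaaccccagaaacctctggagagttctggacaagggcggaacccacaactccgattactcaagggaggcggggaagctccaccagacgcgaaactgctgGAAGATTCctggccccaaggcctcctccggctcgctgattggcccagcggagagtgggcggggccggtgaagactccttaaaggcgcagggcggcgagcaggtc
Hspa1b: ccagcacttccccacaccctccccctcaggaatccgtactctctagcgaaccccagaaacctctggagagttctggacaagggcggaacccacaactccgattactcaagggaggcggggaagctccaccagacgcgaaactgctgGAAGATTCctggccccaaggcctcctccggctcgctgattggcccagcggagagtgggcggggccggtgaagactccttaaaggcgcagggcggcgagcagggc
Hspb1: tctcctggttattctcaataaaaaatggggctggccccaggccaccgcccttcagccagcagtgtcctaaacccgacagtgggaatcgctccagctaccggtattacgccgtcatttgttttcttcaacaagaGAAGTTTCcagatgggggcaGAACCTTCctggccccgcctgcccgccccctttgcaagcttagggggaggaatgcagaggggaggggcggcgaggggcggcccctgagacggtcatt
Hspb6: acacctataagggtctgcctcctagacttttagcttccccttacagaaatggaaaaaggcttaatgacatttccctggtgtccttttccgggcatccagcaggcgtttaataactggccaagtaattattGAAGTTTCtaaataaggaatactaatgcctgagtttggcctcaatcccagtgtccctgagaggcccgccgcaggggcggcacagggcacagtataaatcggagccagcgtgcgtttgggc
The stretches of Hspa1a and Hspa1b, neighbouring genes on chromosome 17, were identical at 247 of 250 bases. The 3 differences were C44T, T47C and T249G, with the base of Hspa1a first, the position counted from 1 at the 5′ end and the base of Hspa1b last. Counted from the start site, the motif began at −104 in both genes, as GAAGATTC, at −117 and −97 in Hspb1, as GAAGTTTC and GAACCTTC, and at −120 in Hspb6, as GAAGTTTC. RefSeq stretches were found for 7 of the 10 genes, with 9 start sites, and 4 of these 9 stretches held the motif, 2 of them the near-identical ones of Hspa1a and Hspa1b, while 6.69% of all 32851 stretches of this length did. The other orientation, TTCNNGAA, was in none of the 9 and in 7.17% of all, and the estrogen response element, GGTCA and TGACC separated by 3 bases, was in none of the 9 and in 0.0639% of all. All 3 motifs read the same on both strands. A match describes letters and not binding.

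None of the 10 chaperone genes differed between OVX + E2 and OVX at the thresholds used. Of the 25 probe sets 12 were below 0 and 13 above 0, where 52.3% of all probe sets were below 0, and the log2 differences ran from −0.12 to 0.13. No member reached an adjusted p under 0.05 (limma with Benjamini-Hochberg adjustment over all probe sets), which 0% of all probe sets did, and the smallest adjusted p of a member was 0.362. No member reached the unadjusted p of 0.001 used in the methods, which 0.213% of all probe sets did. At an unadjusted p under 0.05 there was 1 of 25, a probe set of Hspa8 that was lower in OVX + E2, while 13.8% of all probe sets passed in either direction and 9.43% were lower. Among all probe sets between 8 and 13 in level, where most member probe sets lie, 28.9% to 41.3% passed, depending on the range. The groups did not overlap in the same 1 of 25, against 21.2% of all probe sets. The 95% intervals give the precision of each difference on the deposited scale, from the spread among these samples. They do not bound a biological difference that could have been missed, because that spread may be technical. Of the 25 probe sets 4 also had a mean under 7, and saturation of the brightest was not tested. All 25 intervals lay within a 1.5-fold change either way, with the lowest bound at a fold of 0.671 and the highest at 1.38, both for probe set 1421289_at of Hspb7. For a single probe set the exact permutation test over the 20 ways to split the arrays cannot give a two-sided p below 0.1.

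**Figure D1:**
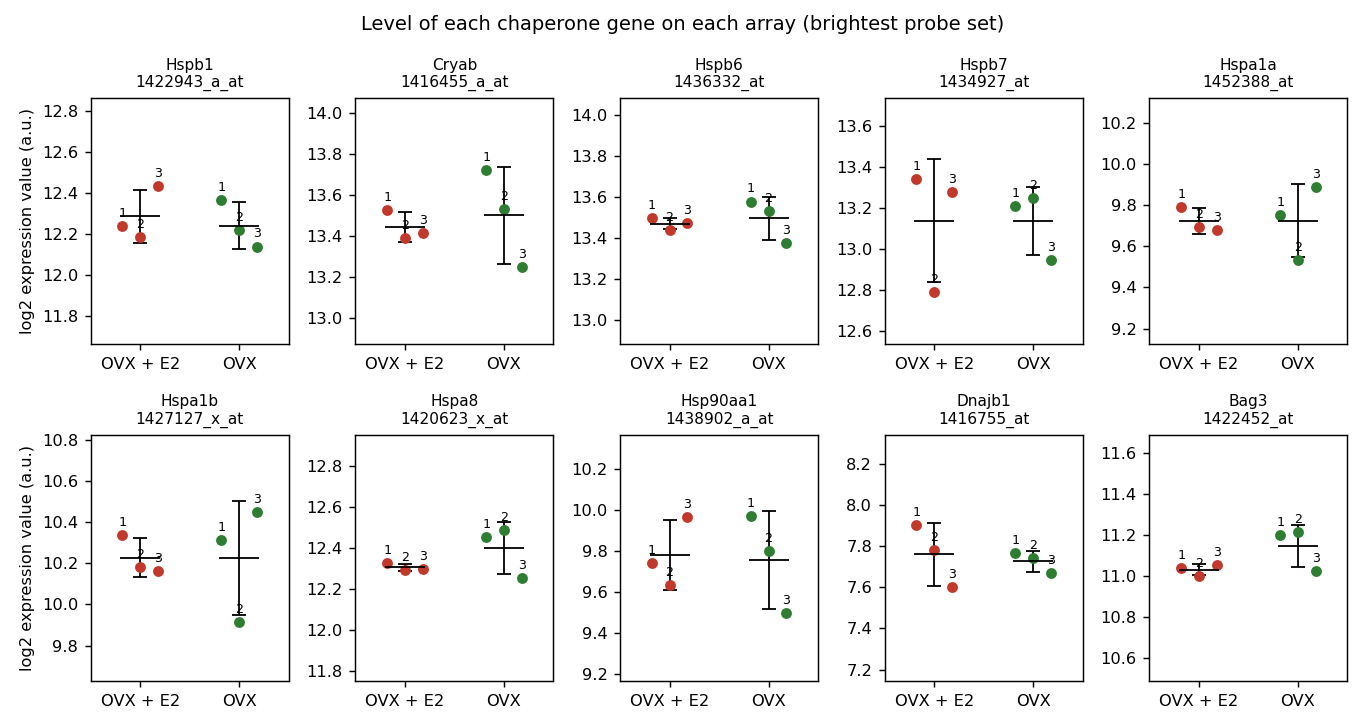
Log2 expression value in arbitrary units (vertical axis, spanning the same height in every panel) of the brightest probe set of each gene on the OVX + E2 arrays (red, left) and the OVX arrays (green, right), with replicate numbers above the points and the mean and SD of each group (n = 3) in black. The groups overlap in all 10 panels, and for Hspa1b the OVX + E2 arrays lie between 10.17 and 10.34, inside the OVX arrays at 9.92 to 10.45.

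Among the small heat shock proteins, Hspb1 (HSP27), which stabilises actin filaments, measured 12.24, 12.18 and 12.43 on OVX + E2 replicates 1, 2 and 3 and 12.36, 12.22 and 12.14 on OVX replicates 1, 2 and 3 with probe set 1422943_a_at. The highest array was an OVX + E2 array and the lowest an OVX array, with the other 4 mixed between them. The log2 difference, OVX + E2 minus OVX, was 0.05 (95% interval −0.15 to 0.24), and 0.07 (−0.14 to 0.29) for its other probe set. Cryab (αB-crystallin), which guards desmin and titin, measured 13.53, 13.39 and 13.41 in OVX + E2 and 13.72, 13.53 and 13.25 in OVX with probe set 1416455_a_at. Its OVX arrays held both the highest and the lowest value, and the difference of −0.06 (−0.32 to 0.21) was smaller than the OVX spread. A further Cryab probe set differed by 0.01 (−0.26 to 0.28), and the remaining one, 1435837_at, lay between 6.15 and 6.37 on all arrays, at percentile 11.0 of all probe sets. Hspb6 (HSP20), a protein kinase A substrate known for relaxing smooth muscle, measured 13.50, 13.44 and 13.47 in OVX + E2 and 13.58, 13.53 and 13.38 in OVX. The OVX + E2 arrays lay close together inside the OVX range, and the difference was −0.03 (−0.16 to 0.11). Hspb7, a small heat shock protein of heart and skeletal muscle that binds filamin C, measured 13.34, 12.79 and 13.28 in OVX + E2 and 13.21, 13.25 and 12.95 in OVX with probe set 1434927_at. OVX + E2 replicate 2 was the lowest array there, and the difference was 0.00 (−0.36 to 0.36). The other Hspb7 probe sets differed by −0.03 (−0.35 to 0.30) and −0.06 (−0.58 to 0.46), and 1421289_at had the largest spread over arrays of all members, 0.90. Cryab and Hspb6 lay near the array maxima of 14.04 to 14.19, and whether their probe sets were saturated was not tested.

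The inducible HSP70 genes Hspa1a and Hspa1b, known for their induction by heat and exercise, had equal means in the 2 groups in 3 of their 4 probe sets, to within 0.01 on the log2 scale. Hspa1a measured 9.79, 9.69 and 9.68 in OVX + E2 and 9.75, 9.54 and 9.89 in OVX, a difference of −0.00 (−0.21 to 0.20). Hspa1b measured 10.34, 10.18 and 10.17 in OVX + E2 and 10.31, 9.92 and 10.45 in OVX with probe set 1427127_x_at, a difference of 0.00 (−0.31 to 0.31). In all 4 probe sets OVX replicate 3 was the highest array and OVX replicate 2 the lowest, so the OVX + E2 arrays always lay between OVX arrays. The Hspa1b probe set 1427126_at spread furthest, with 9.64, 9.59 and 9.46 in OVX + E2 and 9.77, 9.24 and 10.02 in OVX. Its SD was 0.0908 in OVX + E2 and 0.399 in OVX (n = 3 each), and its difference of −0.12 (−0.54 to 0.31) was the lowest of all members. The 2 genes encode almost the same protein, and how far each probe set separates them was not tested, so their values are not independent.

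Hspa8 (HSC70), the constitutive HSP70 of cytosol and nucleus, gave the only member probe set at an unadjusted p under 0.05. Probe set 1455789_x_at measured 12.11, 12.09 and 12.17 in OVX + E2 and 12.25, 12.25 and 12.17 in OVX. The groups did not overlap, but both replicates numbered 3 rounded to 12.17, and the difference was −0.10 (−0.20 to −0.00), a fold of 0.933, with unadjusted p = 0.0493 and adjusted p = 0.362 from limma. The brightest Hspa8 probe set, 1420623_x_at, measured 12.32, 12.29 and 12.30 in OVX + E2 and 12.45, 12.49 and 12.26 in OVX. Its groups overlapped through OVX replicate 3, and its difference was −0.09 (−0.24 to 0.06). Probe set 1420622_a_at of Hspa8 differed by −0.04 (−0.24 to 0.16), while 1431182_at, at percentile 37.3 of all probe sets, differed by 0.13 (−0.05 to 0.31), the highest of all members. The 3 bright Hspa8 probe sets were thus below 0, and the one above 0 was dim, at a level under the array medians.

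Hsp90aa1, the inducible cytosolic HSP90, measured 9.74, 9.63 and 9.97 in OVX + E2 and 9.97, 9.80 and 9.50 in OVX with probe set 1438902_a_at. OVX + E2 replicate 3 and OVX replicate 1 were the highest arrays and OVX replicate 3 the lowest, and the difference was 0.02 (−0.28 to 0.33). Probe set 1437497_a_at of Hsp90aa1 measured 9.24, 9.41 and 9.58 in OVX + E2 and 9.37, 9.21 and 9.35 in OVX, with overlapping groups and a difference of 0.10 (−0.11 to 0.30). The remaining 3 Hsp90aa1 probe sets differed by 0.03, 0.07 and 0.04, and 2 of them lay at percentiles 38.2 and 7.7 of all probe sets.

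The co-chaperones of the HSP70 cycle overlapped as well. Dnajb1 (HSP40), the J-domain protein that delivers clients to HSP70, measured 7.90, 7.78 and 7.60 in OVX + E2 and 7.77, 7.74 and 7.67 in OVX with probe set 1416755_at. OVX + E2 replicates 1 and 3 were the highest and the lowest array, and the difference was 0.03 (−0.15 to 0.22). Its other probe set, 1416756_at, differed by −0.06 (−0.30 to 0.17). Bag3, which joins HSP70 to small heat shock proteins and directs damaged filamin to autophagy, measured 11.04, 11.00 and 11.05 in OVX + E2 and 11.20, 11.21 and 11.03 in OVX. Its groups overlapped through OVX replicate 3 alone, and the difference was −0.11 (−0.25 to 0.02), with unadjusted p = 0.0836 and adjusted p = 0.407 from limma.

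The differences of the chaperones, with a median of 0.00 as deposited, have to be read against a drift of the deposited values with brightness. Among all probe sets with a mean of 8 to 9 the median difference was −0.12, and it was −0.15, −0.16, −0.14 and −0.13 in the next ranges of 1 unit and −0.09 from 13 upward, while it was 0.02 at 6 to 7 and −0.02 at 7 to 8. Of the 25 member probe sets 24 were above the median of their own range, the exception being 1416756_at of Dnajb1, and the brightest probe set was above it in 10 of 10 genes. Whether this drift is technical was not tested. Cyclic loess normalization, which removes such a drift whatever its source, left the median of all probe sets near 0. It put 24 of the 25 member probe sets above 0, against 48.8% of all probe sets. The median of the members was 0.00 as deposited and 0.10 after cyclic loess, with a range of −0.04 to 0.24. With this scaling 11 of the 25 member probe sets changed sign, 13 were above 0 both ways and 1, the Dnajb1 exception, was below 0 both ways. After cyclic loess Hspb1 differed by 0.18 and 0.21, Hspb6 by 0.10, the bright Cryab probe sets by 0.07 and 0.15, Hspa1a by 0.14, Bag3 by 0.03 and the Hspa8 probe set 1455789_x_at by 0.04, while the deposited differences of Hspb6, Bag3 and this Hspa8 probe set were below 0. Again 1 of 25 passed an unadjusted p under 0.05, Hsp90aa1 1437497_a_at at 0.24 (adjusted p = 0.652, limma), against 7.59% of all probe sets, and no member had a smaller adjusted p. Several probe sets belong to the same gene, so their shared direction is not a count of independent genes.

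**Figure D2:**
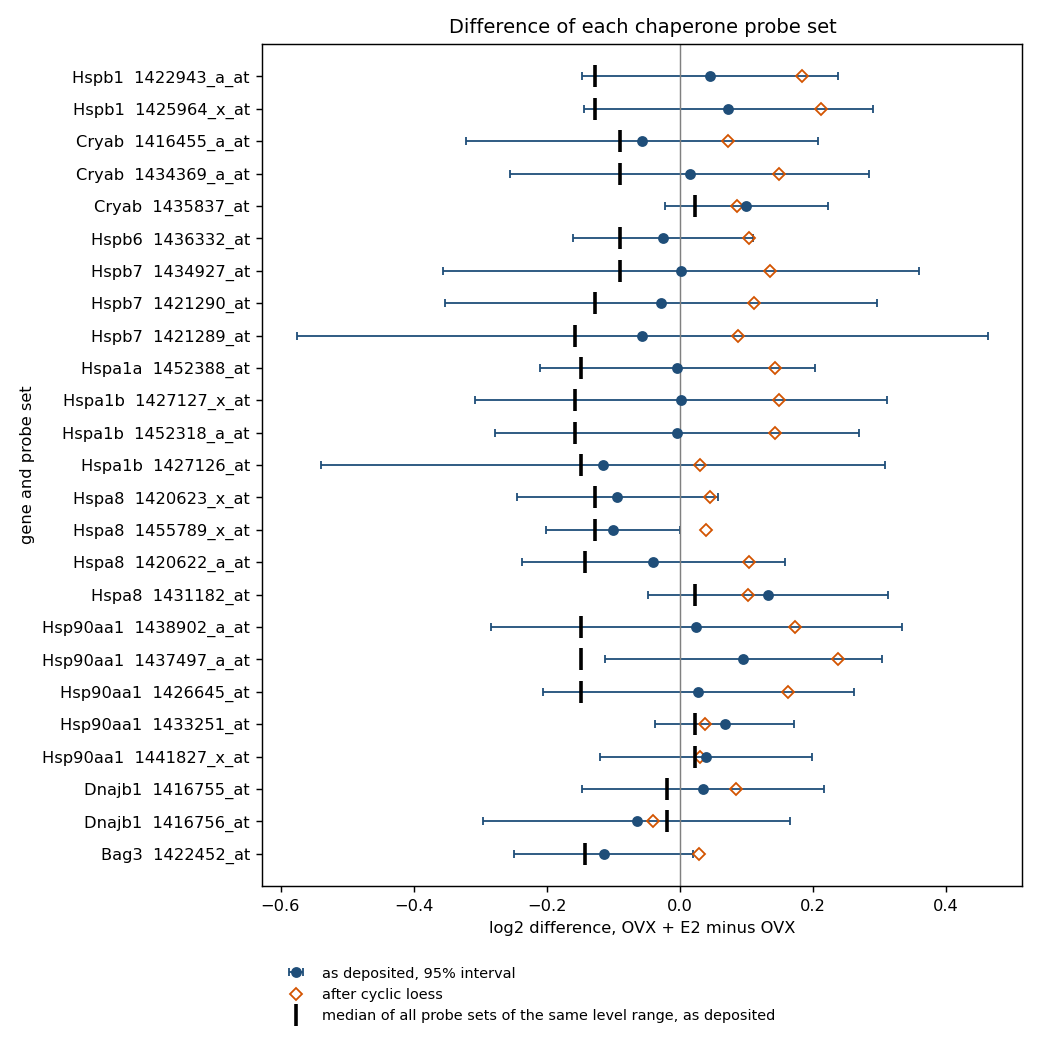
Log2 difference, OVX + E2 minus OVX (horizontal axis), of each of the 25 member probe sets (rows, by gene), as deposited (blue points with 95% intervals from limma), after cyclic loess (open diamonds) and, as black bars, the median deposited difference of all probe sets of the same level range. The deposited points scatter around 0, between −0.12 and 0.13, and 24 of 25 lie to the right of the black bar and have a diamond above 0.

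The other chaperone genes were mostly below 0 on the deposited scale, as probe sets of their brightness were. In 87 other chaperone and chaperone-linked genes, with 1 probe set per gene, 70 were below 0 with a median of −0.12, where 54.0% of all 18194 genes were below 0, and 26 were lower and 2 higher at an unadjusted p under 0.05, where 13.0% of all genes were lower. These lists are bright, with a median level of 8.89, and of all probe sets at 8 to 9 and at 9 to 10 the share lower at this p was 28.2% and 37.4%. Of the 10 members with 1 probe set per gene 6 were below 0 with a median of −0.01, and none passed in either direction. After cyclic loess 6 of the 87 were lower and 3 higher at this p, with a median of −0.01, where 5.06% of all genes were lower and 4.60% higher. The count of 26 lower genes dropped to 14 when OVX replicate 1 was left out, to 15 for OVX + E2 replicate 3 and to 17 for OVX + E2 replicate 1.

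The cytosolic chaperonin CCT, which folds actin and tubulin, and prefoldin, which feeds it, had all 14 genes below 0 with a median of −0.16 and 9 of 14 lower at an unadjusted p under 0.05. All probe sets at 9 to 10, where the median level of this list lay, had a median of −0.15. Of these 37.4% were lower at this p, against 13.0% of all genes. Cct8 was read from a dim probe set, at a mean of 5.93, and differed by −0.01. Cct7 measured 9.53, 9.45 and 9.42 in OVX + E2 and 9.68, 9.74 and 9.76 in OVX. These groups did not overlap, and the difference of −0.26 ± 0.0452 (SE) was the only one of the 87 to pass 0.001 unadjusted (adjusted p = 0.308, limma). Pfdn6 was at −0.21 and Tcp1, another CCT subunit, at −0.16. After cyclic loess the median of the 14 was −0.02, with 1 of 14 lower, which was Cct7 at −0.11.

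The HSP90 co-chaperones had 12 of 15 measured genes below 0 with a median of −0.18, and 6 lower and 1 higher at an unadjusted p under 0.05. The median level of this list was 9.03. All probe sets at 9 to 10 had a median of −0.15, and 37.4% of them were lower at this p. Itgb1bp2 (melusin), a muscle HSP90 co-chaperone, was at −0.30 (adjusted p = 0.308), Cdc37, which brings kinases to HSP90, at −0.29 (adjusted p = 0.310) and Ahsa1, which speeds up the HSP90 ATPase, at −0.18 (adjusted p = 0.311), all from limma. The higher gene was Tsc1, a regulator of mTOR that also binds HSP90, at 0.10. It was read from probe set 1422043_at, at a mean of 7.18, while its brightest probe set lay at percentile 88.5. Fkbp5, the glucocorticoid-induced HSP90 immunophilin, was at 0.25 and did not pass. After cyclic loess 1 of the 15 was lower and 1 higher.

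Of the other J-domain proteins 12 of 14 were below 0 with a median of −0.13, and 5 were lower, among them Dnajc5 (cysteine string protein) at −0.23, Dnajb14 at −0.19 and Dnajc7 at −0.21. Dnajb14, a J-domain protein of the endoplasmic reticulum membrane, stayed at −0.21 after cyclic loess, when 2 of the 14 were lower. All 7 other BAG and exchange factor genes were below 0 with a median of −0.12, and 3 were lower, namely Bag6 at −0.26, Bag4 at −0.12 and the HSP70 exchange factor Hspbp1 at −0.15. After cyclic loess only 1 of these 7 was lower. The median levels of the J-domain and the BAG lists lay between 8 and 9. As deposited, all probe sets in this range had a median of −0.12, and 28.2% were lower at an unadjusted p under 0.05. None of the 8 other HSP70 and HSP110 genes passed, with a median of −0.03.

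The other small heat shock proteins showed 3 of 5 below 0. Hspb3, which pairs with Hspb2 in muscle, was at −0.14 (adjusted p = 0.314, limma) as deposited and at 0.01 after cyclic loess. Hspb8, the Bag3 partner, measured 10.20, 10.34 and 9.57 in OVX + E2 and 10.40, 9.98 and 10.39 in OVX, with OVX + E2 replicate 3 far below the others, and did not pass. Stub1 (CHIP), the ubiquitin ligase that works with HSP70 and Bag3, was at −0.32 (adjusted p = 0.308, limma) as deposited and at −0.17 after cyclic loess. It was the only one of 10 partners and clients of Bag3-directed autophagy to be lower at an unadjusted p under 0.05. Among heat shock factors and their regulators 1 of 6 measured genes passed, Hsf2bp, a partner of Hsf2, at 0.18 as deposited and 0.17 after cyclic loess. Of 8 mitochondrial chaperones 1 was lower, the mitochondrial HSP90 Trap1 at −0.20. The share lower over all genes was 13.0%. Hspa9 was at 0.05 by probe set 1431274_a_at, at a mean of 8.17, while its brightest probe set lay at percentile 98.3.

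**Figure D3:**
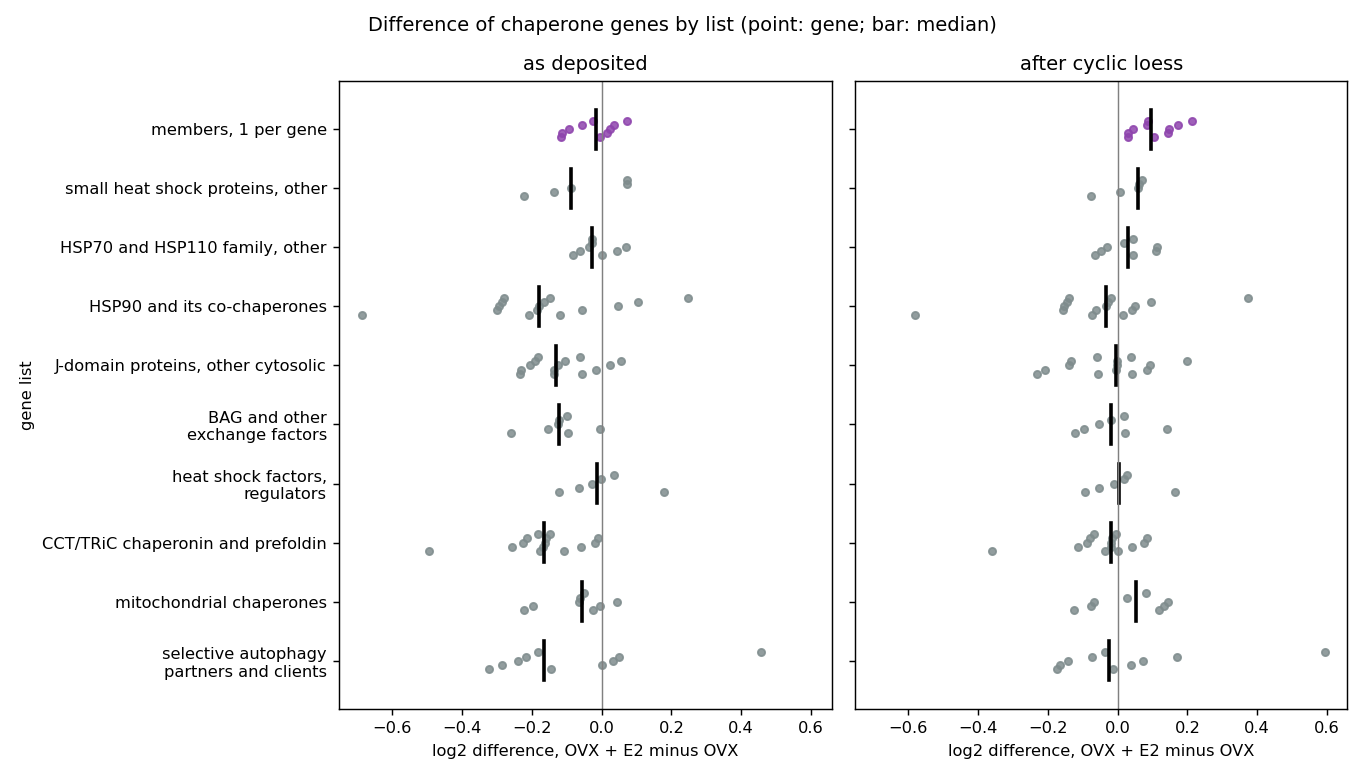
Log2 difference, OVX + E2 minus OVX (horizontal axis), of each gene (point, 1 probe set per gene) by chaperone list (rows), as deposited (left) and after cyclic loess (right), with black bars at the list medians. The members' median is −0.01 on the left and 0.10 on the right, and the median of the CCT and prefoldin genes is −0.16 on the left and −0.02 on the right.

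Much of the variation of the members lay between arrays of 1 group. Over the 8 small heat shock protein probe sets with a mean above 7, the mean deviation from the 6-array mean was 0.12, −0.11 and −0.01 on OVX + E2 replicates 1, 2 and 3 and 0.17, 0.01 and −0.17 on OVX replicates 1, 2 and 3. The OVX arrays held both ends, and OVX replicate 3 was the lowest array in 5 of these 8 probe sets and in 10 of the 25. How often this array is the lowest over all probe sets was not counted. Slow-fibre genes were lowest and fast-fibre genes highest on OVX replicate 3, with deviations of −0.22 and 0.81. The 4 probe sets of Hspa1a and Hspa1b ran differently, at 0.07, −0.04 and −0.07 on the OVX + E2 replicates and 0.09, −0.29 and 0.24 on the OVX replicates. On OVX replicate 3, where they were highest, 12 immediate early genes were also highest, with a deviation of 0.27. On OVX replicate 2, where they were lowest, the immediate early genes were lowest too, at −0.14. The other arrays did not run in parallel. Immediate early genes were at −0.12, −0.01 and 0.08 on OVX + E2 replicates 1, 2 and 3 and at −0.07 on OVX replicate 1. On OVX + E2 replicates 1 and 3 and OVX replicate 1 their sign was opposite to that of Hspa1a and Hspa1b. The part of fibre type and of the immediate early genes in these patterns was not tested.

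**Figure D4:**
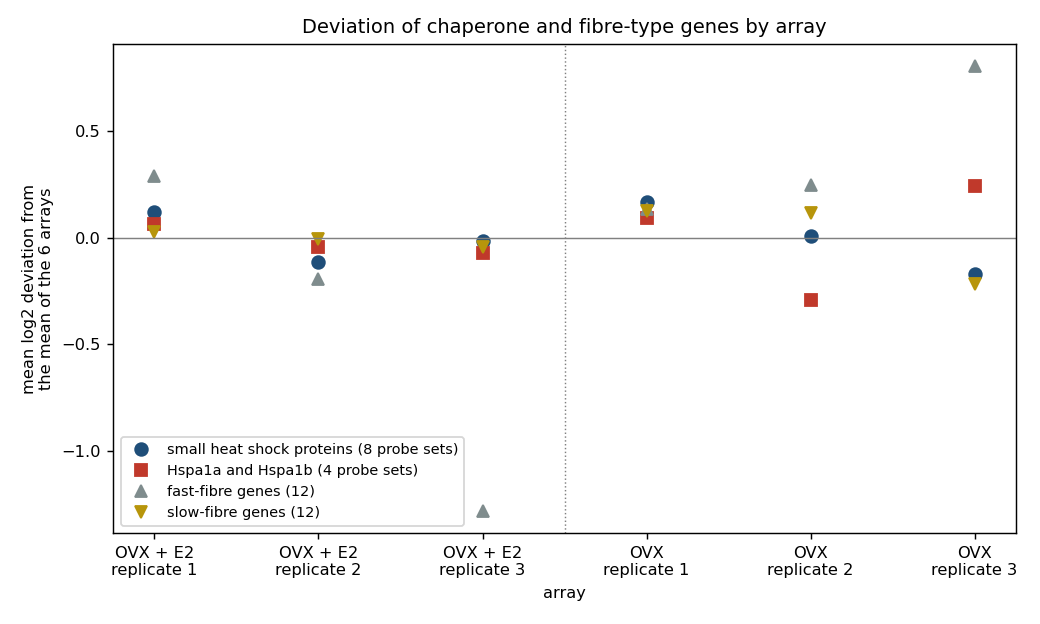
Mean log2 deviation from the mean of the 6 arrays (vertical axis) on each array (horizontal axis, OVX + E2 left and OVX right) for 8 small heat shock protein probe sets, 4 probe sets of Hspa1a and Hspa1b, 12 genes of fast fibres and 12 of slow fibres. On OVX replicate 3 the small heat shock proteins are at −0.17 and the slow-fibre genes at −0.22, while Hspa1a and Hspa1b are at 0.24 and the fast-fibre genes at 0.81.

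The mean level of the marker lists overlapped between the groups, with 1 exception. The 12 fast-fibre genes averaged 10.90 to 12.47 over the OVX + E2 arrays and 12.31 to 12.99 over the OVX arrays, and 12 of 12 were below 0, with 2 lower at an unadjusted p under 0.05. The 12 slow-fibre genes averaged 12.36 to 12.42 in OVX + E2 and 12.18 to 12.52 in OVX, with none passing. The 10 vascular smooth muscle genes, whose cells also carry Hspb1, Cryab and Hspb6, averaged 8.76 to 9.01 in OVX + E2 and 8.95 to 9.16 in OVX. The 2 lower ones were Smtn and Synm, while Myh11, Acta2, Cnn1 and Tagln did not pass. Synm was lowest on OVX + E2 replicate 3 and highest on OVX replicate 3. Some genes of this list, such as desmin (Des), are also made by muscle fibres, so it is not a measure of smooth muscle alone. The 15 skeletal-muscle-restricted genes, at 11.75 to 12.00 in OVX + E2 and 12.02 to 12.16 in OVX, were the list that did not overlap. Of these genes 13 of 15 were below 0, with a median of −0.18 and 4 lower. Myh1, Tnnt3, Tnni2, Tnnc2, Mylpf and Atp2a1 are in both this list and the fast-fibre list. Of the 8 fibroblast genes 8 were below 0, with 3 lower. Of all genes 13.0% were lower at an unadjusted p under 0.05. In the level ranges from 8 upward, which hold the median levels of these 5 lists, 20.2% to 41.0% of all probe sets were lower. The medians of these ranges ran from −0.16 to −0.09. After cyclic loess none of the genes in these 5 lists was lower at an unadjusted p under 0.05.

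Leaving out OVX replicate 3 changed the member count more than any other single array. Without it 7 of 25 probe sets passed an unadjusted p under 0.05, against 12.3% of all probe sets, 5 of them lower and 2 higher in OVX + E2. The lower ones were Bag3 at −0.17, the Hspa8 probe sets 1420623_x_at at −0.17, 1420622_a_at at −0.14 and 1455789_x_at at −0.13, and Cryab 1416455_a_at at −0.18. The higher ones were the dim probe sets 1435837_at of Cryab at 0.14 and 1431182_at of Hspa8 at 0.20. The smallest adjusted p of a member was then 0.367 (limma). Leaving out both arrays numbered 3 also gave 7, of which 6 were among those 7, against 9.65% of all probe sets. Leaving out OVX replicate 2 gave 2, against 13.7% of all probe sets, and leaving out OVX + E2 replicate 1 or 2 gave 0. The SD within the group was smaller in OVX + E2 than in OVX in 15 of the 25 probe sets, a share not counted over all probe sets.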

How the data were processed

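RNA of 6 muscle samples was hybridized to Affymetrix mouse genome arrays. The authors background-corrected the probe signals, normalized them by variance stabilization and summarized each probe set by median polish, working in R 2.14.2; the deposited log2 values cover 45101 probe sets, of which 34958 have 1 gene symbol in the platform annotation, 932 several and 9211 none. Variance stabilization assumes that most probe sets do not change and compresses dim values. Scanner files were not used here. The 10 member genes matched the RefSeq table by Entrez ID. OVX + E2 was compared with OVX by limma 3.58.1 (lmFit and eBayes, all probe sets, R 4.3.3), with Benjamini-Hochberg adjustment over all probe sets, at an adjusted p of 0.05 and at the unadjusted 0.001 of the methods, and an unadjusted 0.05 was used as a description. Where 1 probe set per gene is used, it is the one with the largest interquartile range, which is not always the brightest. Level ranges are 1 unit wide, and cyclic loess used 3 iterations. Alternatives were other normalizations, variance models, filters and left-out arrays. Every member was named, and of each wider list the genes at 0.001 and up to 3 with the smallest p per direction. Members and lists were chosen with earlier results of these data known. The number of arrays, 3 per group, limits the precision.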

Additional observations from a re-analysis of the deposited data

How the results depend on the processing

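No member probe set reached an unadjusted p of 0.001 under any setting tried, and no probe set of the array reached an adjusted p under 0.05. The number of all probe sets at 0.001, 96 as deposited, was 31 with both quantile normalization and cyclic loess, 164 with median-centred arrays, 30 when probe sets below the median level were left out, 39 with an intensity trend of the variance and 37 without both arrays numbered 3, and between 19 (without OVX + E2 replicate 3) and 76 when 1 array was left out. In the wider chaperone lists the 1 gene at 0.001 became 0 with quantile normalization, cyclic loess or the level filter, with the trend, with array weights and with the brightest probe set per gene, and 2 after median centring, and was 0 to 1 with 1 array left out. Member probe sets under 0.05, 1 as deposited, were 0 with the level filter, with the trend and with 1 probe set per gene by either rule, 3 with array weights, 7 without both arrays numbered 3 and 0 to 7 with 1 array left out. The members' median difference, 0.00 as deposited, was 0.11 after quantile normalization and 0.10 after cyclic loess, with 24 of 25 above 0 in both, and ran from −0.04 to 0.05 with 1 array left out. Median centring put 10 of 25 above 0. Genes of the wider lists lower at 0.05, 26 as deposited, were 4 after quantile normalization, 6 after cyclic loess, 12 with the trend and 14 to 27 with 1 array left out. Quantile normalization and cyclic loess both take out the drift with brightness, whatever its source. Whether the drift is technical was not tested, and neither was the cause of these shifts.

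With the replicate number as a block, 21 probe sets of all reached 0.001 and 0 member probe sets reached 0.05. Deviations from the group means, over all probe sets, correlated at −0.13, −0.20 and −0.34 between same-numbered samples 1, 2 and 3. Within a group of 3 arrays these deviations sum to 0, so the correlations cannot tell whether same-numbered samples share a batch. The labels give only the shared number, and the count with the block is not read as a weaker effect.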

Other observations

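The genes whose values over the 6 arrays were most like those of the members were sought among 18184 other genes, by Pearson's r over the 6 arrays, which share their normalization and are too few to separate likeness from coincidence in so large a search. Most like the mean of Hspa1a, Hspa1b and Dnajb1 were Trp53rkb (r = 0.992), P2rx1 (0.987), Gxylt2 (0.985), Gm10033 (0.981) and Ropn1l (0.979), all with mean levels between 5.98 and 6.81, below the array medians. Most like the mean of Hspb1, Cryab, Hspb6 and Hspb7 were Scnn1a (0.984), Ldoc1 (0.973), Mroh9 (0.973), Adamts8 (0.969) and Sp3os (0.964). None of these 10 genes is a chaperone.

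Smyd1, a muscle methyltransferase that acts with HSP90 on myosin, was chosen after its values were seen because it lay furthest from 0 in the wider lists. It measured 8.40, 8.53 and 7.50 in OVX + E2 and 8.74, 8.08 and 9.68 in OVX with probe set 1421329_a_at, which is not its brightest. OVX + E2 replicate 3 was thus the lowest and OVX replicate 3 the highest array, as in the fast-fibre genes. The Smyd1 difference of −0.69 had an unadjusted p of 0.148 (limma). Titin (Ttn), a client of small heat shock proteins, measured 12.59, 12.77 and 12.87 in OVX + E2 and 12.42, 12.66 and 11.79 in OVX with probe set 1444638_at. This is not the brightest Ttn probe set, and its adjusted p as deposited was 0.379 (limma). OVX replicate 3 was again the array apart, and the difference was 0.46 with an unadjusted p of 0.0626 as deposited and 0.59 with an unadjusted p of 0.0238 after cyclic loess, both from limma.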
